A study of Homo sapiens with 2 samples.

Results

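The extracellular matrix genes described here are fibronectin (FN1), 4 collagen chain genes (COL1A1, COL4A1, COL4A2 and COL5A1), the lysyl oxidase gene LOX and the matricellular or adhesive protein genes TGFBI, SPARC, THBS1 and TNC. They were chosen by name, with earlier results of these data known, as were the related lists below. They are 10 genes of the 22982 gene symbols listed in at least 1 of the 2 libraries. The cells were A549, an established human lung adenocarcinoma line, carrying either a stably integrated retrovirus with ATOH8, a basic helix-loop-helix transcription factor gene, or the retroviral vector alone. Total RNA was sequenced from 1 library of each, so there is no spread between replicates and every value compares those libraries only. No p-value was computed for any difference, and the q-values given below are those of the authors' deposited table. Whether each transduced culture was a clone or a pool is not given in the sources used here. ATOH8 itself was listed at 182 FPKM in the ATOH8 library and 0.786 FPKM in the vector library (FPKM, fragments per kilobase of transcript, scaled to the library's total).

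Fibronectin is a large secreted glycoprotein that cells assemble into fibrils through integrins, and it offers binding sites to collagens and other matrix proteins. Fibrillar collagens such as types I and V form the tensile fibres of connective tissue, whereas type IV collagen forms the sheet-like network of basement membranes on which lung epithelium rests. Matricellular proteins such as thrombospondin 1, tenascin C and SPARC do little structural work and instead modulate how cells attach to, and signal from, the matrix. Epithelial cells make type IV collagen and fibronectin themselves, whereas most type I collagen in lung comes from fibroblasts.

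The sequences before the transcription starts of FN1 and TGFBI, the most abundant of the 10 genes in both libraries, and of the divergent pair COL4A1 and COL4A2 are shown first, because the results below turn on those genes. They come from the RefSeq promoter table of build GRCh38.p14, which matched 9 of the 10 genes and has none for COL1A1. FN1 and TGFBI are given as the 250 bases before the annotated start on the gene's own strand, chr2:215436069-215436318 on the minus strand and chr5:136028738-136028987 on the plus strand. For COL4A1 and COL4A2 the 126 bases between their starts are given on the plus strand, chr13:110307158-110307283, so that COL4A1 is read leftwards from this stretch and COL4A2 rightwards. Capitals mark matches, on either strand, to an E-box (CANNTG, the core that basic helix-loop-helix factors bind), a cyclic AMP response element half-site (spelled TGACG), the motif known as the CCAAT box, a TATA box (spelled TATAAA) or, lastly, a GC box (spelled GGGCGG).
FN1: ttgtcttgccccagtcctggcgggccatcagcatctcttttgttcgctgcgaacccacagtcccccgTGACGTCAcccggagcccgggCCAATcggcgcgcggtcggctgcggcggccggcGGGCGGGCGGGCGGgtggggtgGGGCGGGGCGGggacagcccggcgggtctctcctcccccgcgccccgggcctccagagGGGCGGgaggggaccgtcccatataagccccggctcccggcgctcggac
TGFBI: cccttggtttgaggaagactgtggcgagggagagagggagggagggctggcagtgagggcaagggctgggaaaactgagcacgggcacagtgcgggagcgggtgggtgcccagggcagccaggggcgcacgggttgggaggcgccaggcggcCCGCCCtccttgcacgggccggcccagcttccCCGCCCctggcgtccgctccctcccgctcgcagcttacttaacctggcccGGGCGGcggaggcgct
COL4A1/COL4A2: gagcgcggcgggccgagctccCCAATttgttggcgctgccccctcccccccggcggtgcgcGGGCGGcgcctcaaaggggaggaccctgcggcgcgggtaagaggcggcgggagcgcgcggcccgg

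These windows are rich in G and C, at 76.4% of the FN1 and 72.8% of the TGFBI window, against a median of 58.0% over 27305 RefSeq promoters of the same length. The FN1 window holds 2 overlapping half-sites of the cyclic AMP response element on opposite strands, starting 183 bases before the RefSeq start. Downstream of them lie a CCAAT box and 6 GC boxes, some of which overlap. The TGFBI window holds 3 GC boxes and none of the other motifs, and the COL4A1/COL4A2 stretch holds 1 CCAAT box and 1 GC box. Of the 9 genes with a window, only SPARC and TNC hold an E-box, which is present in 62.2% of all promoters. GC boxes are present in 8 of the 9 windows and in 42.3% of all promoters, CCAAT boxes in 5 of 9 and 33.0%, the response element half-site in 1 of 9 and 21.7%, and the TATA box in 0 of 9 and 11.1%. A match is a match of letters in this window only.

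Most of the chosen genes were higher in the ATOH8 library, with fibronectin and TGFBI far above the others in level. Of the 10 genes, 9 were listed in both libraries, and 7 of those 9 had more FPKM in the ATOH8 library while THBS1 and LOX had less. These counts include TNC and LOX, whose levels are too low for a direction to be read. The share of all genes with more FPKM in the ATOH8 library was not counted. The median gene was itself lower in the ATOH8 library, by -0.36 on the log2(FPKM + 1) scale over genes with a mean of at least 5 FPKM, so log2 folds below are relative to that median unless the deposited values are named. On that scale 5 of the 7 genes with a mean of at least 1 FPKM (FN1, TGFBI, COL1A1, COL5A1 and COL4A2) were at least 2-fold higher, COL4A1 was just short of it, and none of the 7 was lower by as much. Over all 12342 genes measured in the same way, 12.8% passed 2-fold upwards and 9.46% downwards. All 7 genes had at least 2 FPKM in both libraries, so none was kept through 1 library alone. Their median log2 fold was 1.41, against 0.06 over all genes measured. Because the genes were chosen with earlier results of these data known, these contrasts describe the chosen genes and test nothing.

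**Figure D1:**
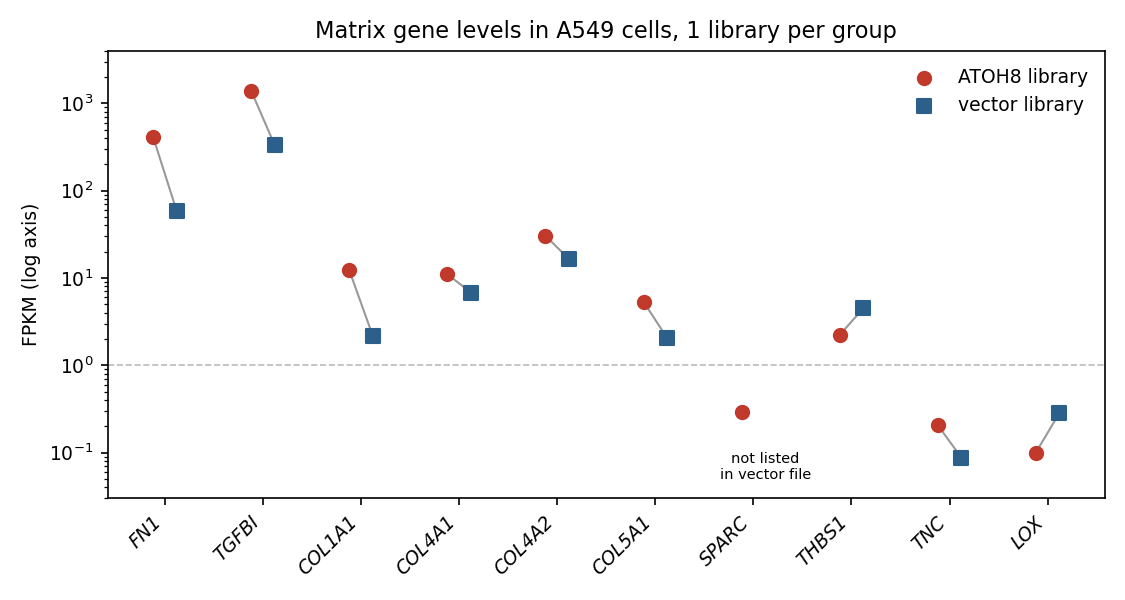
FPKM of each gene (log axis) in the ATOH8 library (circles) and the vector library (squares), 1 library each, joined by a line. TGFBI and FN1 stand at 1388 and 411 FPKM in the ATOH8 library, SPARC, TNC and LOX lie below the dashed line at 1 FPKM, and only THBS1 and LOX are lower in the ATOH8 library.

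FN1 (ENSG00000115414, chromosome 2, 215360440 to 215436172, minus strand, build GRCh38, as are all positions below) had 411 FPKM in the ATOH8 library and 58.6 FPKM in the vector library. The ATOH8 value is 7.02 times the vector value, and it placed FN1 as the 157th most abundant gene of the ATOH8 library, against rank 1256 in the vector library. Its log2 fold of 3.15 was the 24th highest of the 12342 genes measured, and the 3rd highest of the 603 genes with a mean of at least 100 FPKM. No other annotated gene overlaps FN1 on either strand in GENCODE 29, and its listed locus holds no other listed gene.

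TGFBI encodes a secreted protein that binds collagens and integrins and takes its name from its induction by TGF-beta. The gene (ENSG00000120708, chromosome 5, 136028895 to 136063818, plus strand) was at 1388 FPKM in the ATOH8 library and 331 FPKM in the vector library. It was thus an abundant transcript of both libraries, at rank 43 in the ATOH8 library and rank 201 in the vector library, and 4.20-fold apart between them. Its log2 fold was 2.42. TGFBI exceeded FN1 in both libraries, by 3.38 times in the ATOH8 and 5.65 times in the vector library.

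Together these 2 genes made up 96.7% of the summed FPKM of the 10 genes in the ATOH8 library, against 92.3% in the vector library. The 10 genes summed to 1861 FPKM, or 0.370% of all FPKM, in the ATOH8 library and to 422 FPKM, or 0.0781%, in the vector library. A sum over the group is therefore a statement about TGFBI and FN1.

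COL1A1 encodes the alpha 1 chain of type I collagen, which normally assembles together with the alpha 2 chain from COL1A2. COL1A1 (ENSG00000108821, chromosome 17, 50183289 to 50201632, minus strand) was at 12.2 FPKM in the ATOH8 library and 2.16 FPKM in the vector library, a log2 fold of 2.42. The ATOH8 value is 5.66 times the vector value. At this level the pseudocount of 1 weighs on the fold, which was 2.83 with a pseudocount of 0.1 and 1.55 with a pseudocount of 5. COL1A2 was listed at 0.0367 FPKM in the ATOH8 library and was not listed in the vector library. The partner chain thus stayed far below COL1A1, whose FPKM was 334 times higher in the ATOH8 library. COL3A1, the fibrillar collagen that accompanies type I in most stroma, was at 0.0566 FPKM in the ATOH8 library and unlisted in the vector library.

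COL5A1 encodes a chain of type V collagen, a minor fibrillar collagen that co-assembles with type I. It (ENSG00000130635, chromosome 9, 134641774 to 134844843, plus strand) stood at 5.33 FPKM in the ATOH8 library and 2.05 FPKM in the vector library, a log2 fold of 1.41. Its partner chain gene COL5A2 was more abundant and differed by a like amount, with 15.7 FPKM in the ATOH8 library and 6.95 FPKM in the vector library (log2 fold 1.43). After the correction for base composition described below the 2 genes lay further apart, COL5A1 at 0.86 and COL5A2 at 1.34. The FPKM of COL5A1 over COL5A2 was 0.339 in the ATOH8 library, against 0.295 in the vector library.

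The type IV collagen genes COL4A1 and COL4A2, which encode the most widespread basement membrane chains, differed less. COL4A1 (ENSG00000187498, chromosome 13, 110148963 to 110307233, minus strand) was at 11.0 FPKM in the ATOH8 library and 6.80 FPKM in the vector library (log2 fold 0.98). COL4A2 (ENSG00000134871, chromosome 13, 110305812 to 110513209, plus strand) was at 30.4 FPKM in the ATOH8 library and 16.4 FPKM in the vector library (log2 fold 1.21). They lie on either side of the 2-fold line only narrowly, and the ratio of COL4A2 to COL4A1 FPKM was 2.76 in the ATOH8 and 2.41 in the vector library. Both carry the same locus in the deposited tables and overlap on opposite strands in GENCODE 29. Without a stated strand setting, reads in the overlap cannot be assigned to either.

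The 6 type IV chain genes form 3 head-to-head pairs in the genome, with 126 bases between the RefSeq starts of COL4A1 and COL4A2, 418 between COL4A4 and COL4A3, and 379 between COL4A6 and COL4A5. COL4A5 was at 18.4 FPKM in the ATOH8 library and 4.55 FPKM in the vector library (log2 fold 2.17), and COL4A6 at 17.9 FPKM in the ATOH8 library and 4.21 FPKM in the vector library (log2 fold 2.22). COL4A3 had 3.51 FPKM in the ATOH8 library and 1.46 FPKM in the vector library (log2 fold 1.23), and COL4A4 had 3.95 FPKM in the ATOH8 library and 1.88 FPKM in the vector library (log2 fold 1.14). The genes of a pair therefore lay close together in fold, and the pair on chromosome X stood above the other 2 pairs. In all, 5 of the 6 genes were at least 2-fold higher, beside 12.8% of all genes. After the correction for base composition described below it was 3 of 6, beside 8.33%. On the log2(FPKM + 1) scale without centring it was 2 of 6, beside 6.24%. The summed level of the 6 genes was 85.2 FPKM in the ATOH8 library and 35.3 FPKM in the vector library. Only COL4A5 and COL4A6 of the 6 were marked in the authors' deposited table, both up.

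**Figure D2:**
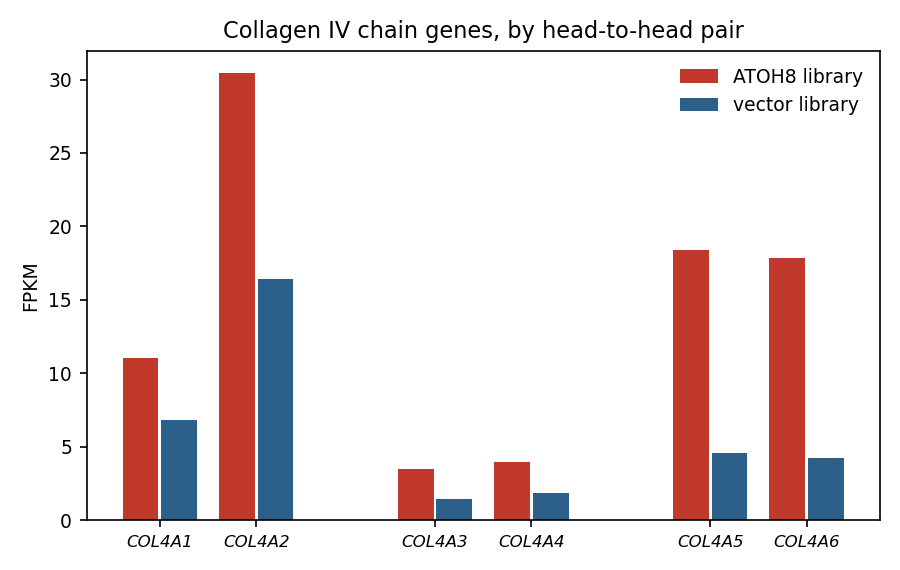
FPKM (linear axis from 0) of the 6 type IV collagen chain genes, grouped by head-to-head pair, in the ATOH8 library (left bar) and the vector library (right bar), 1 library each. All 6 are taller in the ATOH8 library, COL4A5 at 18.4 FPKM (vector library 4.55 FPKM) and COL4A6 at 17.9 FPKM (vector library 4.21 FPKM).

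Thrombospondin 1, a trimeric matricellular protein that can activate latent TGF-beta, was the exception among the genes above 1 FPKM. THBS1 (ENSG00000137801, chromosome 15, 39581079 to 39599466, plus strand) was at 2.23 FPKM in the ATOH8 library and 4.48 FPKM in the vector library, 2.01 times higher in the vector library as deposited. On the log2 scale it was at -0.77 as deposited and at -0.41 relative to the median gene. Its listed locus also holds 1 other listed gene.

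The remaining 3 genes were close to the bottom of the tables. SPARC (ENSG00000113140, chromosome 5, 151661096 to 151687165, minus strand), which encodes a collagen-binding matricellular protein, was listed at 0.289 FPKM in the ATOH8 library and was not listed in the vector library; the tables hold no value of 0, so its vector level is unknown and no fold is given. TNC (ENSG00000041982, chromosome 9, 115019578 to 115118257, minus strand), which encodes tenascin C, was at 0.205 FPKM in the ATOH8 library and 0.0877 FPKM in the vector library. LOX (ENSG00000113083, chromosome 5, 122063195 to 122078360, minus strand), which encodes an enzyme that crosslinks collagen and elastin, was at 0.1001 FPKM in the ATOH8 library and 0.284 FPKM in the vector library. These levels are too low for a direction to be read. Relative to the median gene, the log2 fold with a pseudocount of 1 was 0.51 for TNC and 0.14 for LOX. With a pseudocount of 0.1 it was 1.09 for TNC and -0.56 for LOX. Without centring, with a pseudocount of 1, TNC was at 0.15 and LOX at -0.22, so the sign for LOX depends on the centring as well. COL5A1, THBS1, SPARC, TNC and LOX each overlap an annotated gene on the opposite strand in GENCODE 29, so that their reads too could not be told apart from antisense ones there. LOX shares its listed locus with SRFBP1, which was at 0.818 FPKM in the ATOH8 library and 5.30 FPKM in the vector library.

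**Figure D3:**
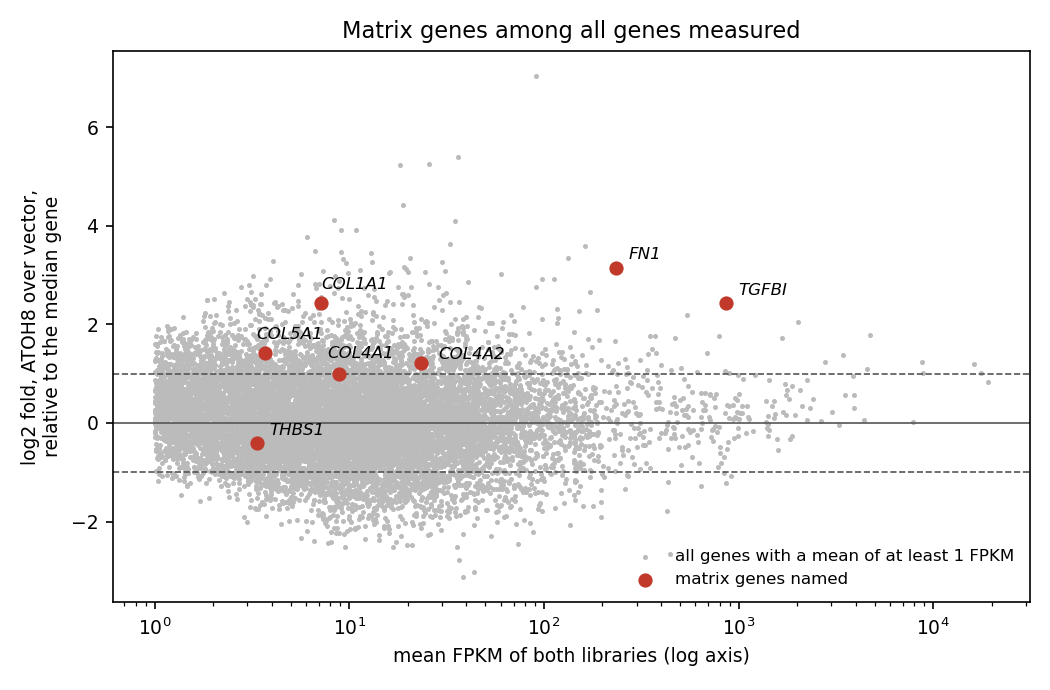
Log2 fold of ATOH8 over vector relative to the median gene against the mean FPKM of both libraries (log axis), for 12342 genes (grey) and the 7 matrix genes measured (red); dashed lines mark 2-fold. FN1 and TGFBI, at log2 folds of 3.15 and 2.42, rank 3 and 6 among the 603 genes with a mean of at least 100 FPKM, and COL4A1 and THBS1 lie between the dashed lines.

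The authors' deposited table of differential expression, whose p-values compare the 2 libraries, held 3 of the 10 genes. FN1 was marked up with a log2 ratio of 2.81 and a q-value written as 0, TGFBI with 2.07 and a q-value of 1.5e-11, and COL1A1 with 2.50 and a q-value of 8.49e-05 in the authors' deposited table. Of all genes measured, 5.16% were marked up in that table. The other 7 genes were not in it, and COL4A1, COL4A2, COL5A1 and THBS1 are thus genes for which the authors' deposited table makes no call. Its ratios come from the same FPKM and add no separate measurement.

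Folds across the 2 libraries also followed base composition, which bears on the collagens. In the decile of measured genes with the lowest GC content of the longest transcript 2.03% passed 2-fold upwards, and in the decile with the highest 28.9%. COL4A2 (62.0% GC), COL1A1 (61.1%) and COL5A1 (60.3%) lay in the ninth or the highest decile, COL4A1 (55.4%) in the eighth, TGFBI (50.6%) in the sixth, THBS1 (45.6%) in the fourth and FN1 (42.2%) in the third. The longest transcripts of FN1 and TGFBI are not coding ones, and their longest coding transcripts had a GC content of 50.2% for FN1 and 53.8% for TGFBI.

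After a GC correction, FN1 (log2 fold 3.49), TGFBI (2.21) and COL1A1 (1.86) were still at least 2-fold higher, whereas COL5A1 (0.86), COL4A2 (0.63) and COL4A1 (0.58) were not. That makes 3 of 7 genes, beside 8.33% of all genes after the correction, and none of the 7 passed 2-fold downwards, beside 5.94% of all genes. With the GC content of coding transcripts the same 3 genes passed, at 2.97 for FN1, 2.10 for TGFBI and 1.86 for COL1A1. On the log2(FPKM + 1) scale without centring, 4 of the 7 genes passed (COL4A2, at 0.85, did not), beside 6.24% of all genes, and none downwards (THBS1, 2.01 times higher in the vector library by FPKM alone, was at -0.77), beside 19% of all genes. What part of the collagen differences goes with GC content, and what part with ATOH8, was not tested.

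**Figure D4:**
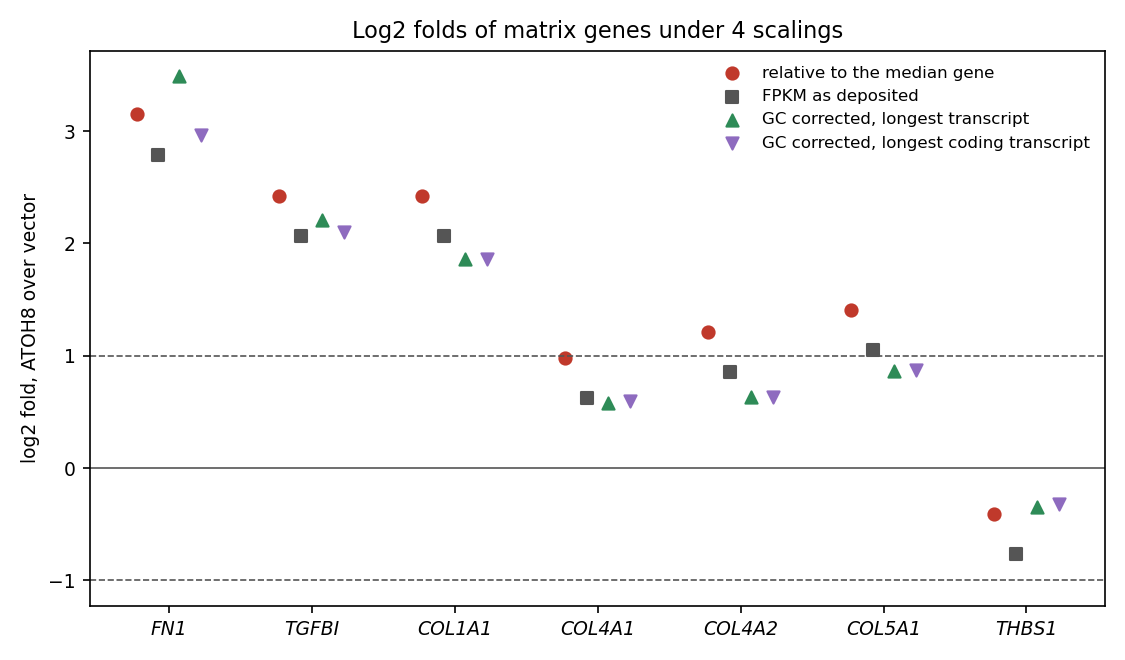
Log2 fold of ATOH8 over vector for the 7 genes measured under 4 scalings (symbols), with dashed lines at 2-fold. FN1, TGFBI and COL1A1 lie above the upper line under all 4, COL4A1 below it under all 4, and COL4A2 and COL5A1 cross it between scalings, while THBS1 stays between the lines.

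Other collagen chains were mostly too low to compare. Of 40 further collagen genes, 11 had a mean of at least 1 FPKM. At least 2-fold higher were 8 of the 11, beside 12.8% of all genes, with none lower by as much (median log2 fold 1.23). Most of these 8 are not further evidence, because COL4A3, COL4A4, COL4A5, COL4A6 and COL5A2, already described above, are among them. Beside the COL4A5 and COL4A6 values given above, COL18A1, a basement membrane collagen that yields endostatin, was at 48.8 FPKM in the ATOH8 library and 18.5 FPKM in the vector library (log2 fold 1.71). COL6A2, of the beaded-filament collagen VI, was at 8.11 FPKM in the ATOH8 library and 2.84 FPKM in the vector library (log2 fold 1.60). The anchoring-fibril collagen gene COL7A1 (log2 fold 0.69), COL27A1 (0.95) and COL12A1 (0.07) were within 2-fold. With GC content corrected for, 5 of the 11 were at least 2-fold higher, beside 8.33% of all genes, and COL6A2 (0.93) was not among them.

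The enzymes and chaperones that modify and process collagen differed less as a group. Of 26 such genes, 20 were measured, with 5 at least 2-fold higher, none lower by as much and a median log2 fold of 0.56. Among all genes measured, 12.8% passed 2-fold upwards and 9.46% downwards. P4HA3, a subunit gene of collagen prolyl 4-hydroxylase, led with 33.7 FPKM in the ATOH8 library and 6.40 FPKM in the vector library (log2 fold 2.59). BMP1, which encodes a procollagen C-proteinase, was at 21.9 FPKM in the ATOH8 library and 6.56 FPKM in the vector library (log2 fold 1.96). Its enhancer gene PCOLCE (1.44) and the collagen chaperone gene SERPINH1 (1.19) were also above 2-fold, as was P4HA2 (1.09), whereas the related enhancer gene PCOLCE2 stood at -0.87 and was down in the authors' deposited table. With GC content corrected for, 2 of the 20 passed 2-fold upwards and PCOLCE2 (-1.04) downwards, beside 8.33% and 5.94% of all genes. Before the correction 25% of the list passed 2-fold upwards, above the share of all genes, and after it both shares were close to those of all genes. Neither contrast was tested.

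Among the relatives of LOX, LOXL2 was the only lysyl oxidase gene above 1 FPKM, at 47.0 FPKM in the ATOH8 library and 24.4 FPKM in the vector library (log2 fold 1.28, and 0.79 after the GC correction). LOXL3 and LOXL4 were below 0.3 FPKM in both libraries, and LOXL1 was listed in the vector library alone, at 0.208 FPKM. Of 7 further thrombospondin and tenascin genes only THBS3 was measured, at 5.83 FPKM in the ATOH8 library and 3.44 FPKM in the vector library (log2 fold 0.98).

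Of 15 other matricellular genes, 7 were measured and 2 were at least 2-fold higher, beside 12.8% of all genes, with a median log2 fold of 0.64. WISP2, of the CCN family, was at 15.9 FPKM in the ATOH8 library and 1.93 FPKM in the vector library (log2 fold 2.88), and SMOC1, a relative of SPARC, was at 14.1 FPKM in the ATOH8 library and 1.82 FPKM in the vector library (log2 fold 2.78). The other CCN genes CTGF (0.76) and CYR61 (0.07) lay within 2-fold, and so did FSTL1 (0.64) and SPOCK1 (0.59). The osteopontin gene SPP1, the most abundant of the list, was at 129 FPKM in the ATOH8 library and 146 FPKM in the vector library (log2 fold 0.18). The listed loci of WISP2 and SMOC1, like those of P4HA3, HSPG2 and COL4A3, hold other listed genes, between which reads could be split. So do those of COL18A1, P4HA2, PCOLCE, BMP1, LOXL2, THBS3, CTGF, FSTL1, ITGA5, ITGB1, SDC4, CDH1, KRT8 and KRT18, among other genes named here.

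Of a list of 34 matrix glycoprotein and proteoglycan genes, 17 were measured. At least 2-fold higher were 9 of the 17, beside 12.8% of all genes, with none lower by as much and a median log2 fold of 1.16. HSPG2, which encodes the basement membrane proteoglycan perlecan, was at 33.5 FPKM in the ATOH8 library and 9.70 FPKM in the vector library (log2 fold 2.05). The latent TGF-beta binding protein genes LTBP4 (2.003), LTBP3 (1.73) and LTBP2 (1.46) followed, with LTBP1 at 0.66. FGA, a fibrinogen chain gene, was at 1.28, and the lowest of the 17 was another fibrinogen chain gene, FGB, at -0.18 (0.23 after the GC correction). With GC content corrected for, the count was again 9 of 17, beside 8.33% of all genes.

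Among receptors for these proteins, 11 genes of a list of 16 were measured. At least 2-fold higher were 3 of the 11, beside 12.8% of all genes, and none was lower by as much (median log2 fold 0.37). The collagen receptor kinase gene DDR1 was at 62.2 FPKM in the ATOH8 library and 17.3 FPKM in the vector library (log2 fold 2.15). ITGA5, the fibronectin-binding integrin alpha 5 chain gene, was at 21.9 FPKM in the ATOH8 library and 9.80 FPKM in the vector library (log2 fold 1.44), while the gene of its partner chain, ITGB1, was at 324 FPKM in the ATOH8 library and 479 FPKM in the vector library (log2 fold -0.20). The syndecan gene SDC4 stood at 1.41, the integrin chain gene ITGB6 at 0.90 and the thrombospondin receptor gene CD47 at -0.45. With GC content corrected for, 4 of the 11 were at least 2-fold higher, ITGB6 (1.41) among them, beside 8.33% of all genes. ITGB1 (0.32) and CD47 (0.16) then lay on the other side of 0. With the GC content of coding transcripts the count was 3 of the 11, ITGA5 being at 0.96, beside 8.39% of all genes.

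**Figure D5:**
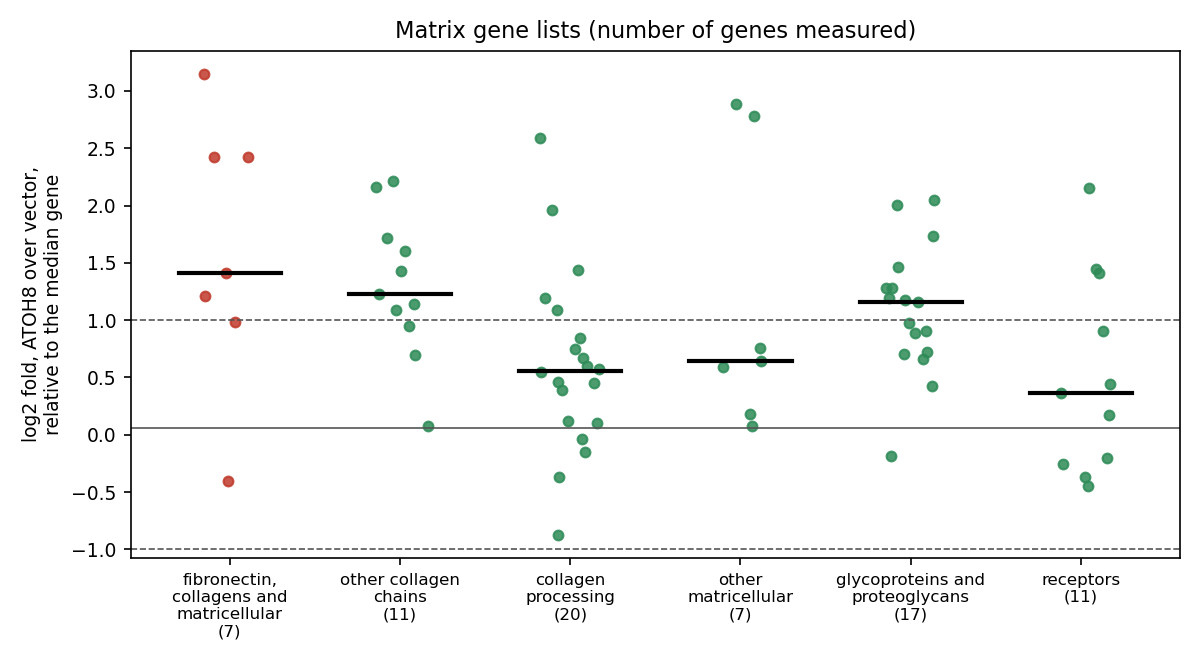
Log2 fold of ATOH8 over vector relative to the median gene, 1 point per gene with a mean of at least 1 FPKM, by list; black bars are medians, dashed lines 2-fold and the solid line the median of all genes measured, 0.06. Medians run from 0.37 for receptors and 0.56 for collagen processing to 1.16 for glycoproteins and proteoglycans, 1.23 for other collagen chains and 1.41 for the 7 chosen genes.

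Of 5 epithelial markers 4 reached 1 FPKM in each library, and the 5 summed to 4370 FPKM in the ATOH8 library and 4885 FPKM in the vector library. The keratin gene KRT8 was at 2302 FPKM in the ATOH8 library and 2381 FPKM in the vector library, and KRT18 at 2012 FPKM in the ATOH8 library and 2486 FPKM in the vector library. CDH1, which encodes E-cadherin, was higher in the ATOH8 library, at 54.1 FPKM in the ATOH8 library and 15.4 FPKM in the vector library (log2 fold 2.11, and 1.99 after the GC correction), and was marked up in the authors' deposited table. EPCAM was at 2.23 FPKM in the ATOH8 library and 1.70 FPKM in the vector library, with KRT19 below 1 FPKM in both. Of 8 fibroblast markers, 0 reached 1 FPKM in either library: they summed to 0.800 FPKM in the ATOH8 library and 0.756 FPKM in the vector library, and THY1 and FAP were listed in neither. Endothelial markers summed to 0.0820 FPKM in the ATOH8 library and were unlisted in the vector library. Of 4 leukocyte markers CD14 alone reached 1 FPKM, at 9.14 FPKM in the ATOH8 library and 1.12 FPKM in the vector library, while PTPRC was at 0.0111 FPKM in the ATOH8 library and unlisted in the vector library. Mitochondrial transcripts, which take part in the FPKM total, made up 24.2% of it in the ATOH8 library, against 14.4% in the vector library, leaving MT-CO1 out of both. With the FPKM rescaled without mitochondrial genes and not centred, FN1 and TGFBI had log2 folds of 3.05 and 2.31. The median gene with a mean of at least 5 FPKM was at -0.12 on that scale.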

How the data were processed

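RNA sequencing of A549 cells gave 1 ATOH8 and 1 vector library, grouped by the treatment label. The submitters' processing notes name CASAVA, HISAT2, Cufflinks 2.2.1 and build hg38 (GRCh38), with no roles; annotation release, strand setting and depth were not given in the sources used here, and FPKM keep no count, so values carry no counting interval. The authors deposited FPKM per gene and library, per the file headers, with no 0 listed. They also deposited a comparison table with a log2 ratio (read as a score, because ratios to 0 are written as extreme numbers) and p-values and q-values, per the file headers; its 2 FPKM columns carry names that match no label and stayed unused.

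Tables were joined by gene identifier, rows of a shared symbol summed (18786 symbols), and log2 folds taken as log2(ATOH8 + 1) minus log2(vector + 1), which understates changes of low genes. Genes with a mean of at least 1 FPKM were measured (12342), and folds were centred on the median of genes with a mean of at least 5 FPKM (-0.36). A size rule of 2-fold stood in for a test. For the GC correction a lowess curve (fraction 0.3) was subtracted, fitted on GC content of the longest GENCODE 29 transcript, known for 99.8% of measured genes. The arithmetic of the folds, the centring and the GC correction was checked on simulated data, which does not bear on the spread between replicates. The genes, the 7 related lists (142 genes) and 4 marker lists were chosen with earlier results of these data known. The text names all 10 chosen genes, ATOH8, up to 5 genes per related list by size of fold, all genes of related lists of 6 or fewer, and marker genes with a mean of at least 1 FPKM; others it names (COL1A2, COL3A1, partner chains, relatives within 2-fold) were picked after their values were seen. Python 3.11.15, pandas 2.3.3 and statsmodels 0.14.6 were used.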

Additional observations from a re-analysis of the deposited data

How the results depend on the processing

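No paired analysis was possible because each group holds 1 library, and no library could be left out. Under 10 other settings and 1 more chosen after seeing the data (GC content of coding transcripts), FN1 kept a log2 fold of 2.79 to 3.49, TGFBI 2.07 to 2.45 and COL1A1 1.55 to 2.83, all above 2-fold, while THBS1 ran from -0.78 to -0.11. COL4A1 (0.58 to 1.07), COL4A2 (0.63 to 1.27) and COL5A1 (0.83 to 1.72) crossed 2-fold. Of the 7 measured genes the number at least 2-fold higher was 3 with either GC correction, with a median of 0.86 (0.87 on coding transcripts). That number was 6 with a pseudocount of 0.1 (16.0% of all genes) and 4 with a pseudocount of 5, as deposited or as TPM. With a mean of at least 5 FPKM it was 4 of 5 genes measured. For other collagen chains it was 5 with a pseudocount of 5, a mean of at least 5 FPKM, the FPKM as deposited or either GC correction, and the median was 0.68 with a pseudocount of 5, 0.52 with no filter, 0.87 as deposited, 0.97 with the GC correction and 0.993 on coding transcripts. Under these settings 5.15% of all genes passed upwards with a pseudocount of 5, 11.5% with a mean of at least 5 FPKM (where 6 of these chains were measured), 6.24% as deposited, 8.33% with the GC correction and 8.39% on coding transcripts, against 12.8% relative to the median gene with a pseudocount of 1 and a mean of at least 1 FPKM. For collagen processing it was 3 with a pseudocount of 5, as deposited or as TPM (8.84% of all genes), and 2 with either GC correction, and 1 gene, PCOLCE2, was at least 2-fold lower as deposited, as TPM with or without mitochondrial genes, and with either GC correction. For glycoproteins and proteoglycans it was 5 with a pseudocount of 5 and 4 as deposited, and the median was 0.73 with a pseudocount of 5, 0.90 with no filter, 0.80 as deposited and 0.96 as TPM. Smaller counts with a larger pseudocount, a stricter filter or no centring follow from how those settings are built. With no filter, genes below 1 FPKM enter, whose folds the pseudocount holds near that of an unchanged gene. The FPKM keep no depth, which limits SPARC, TNC and LOX most.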

Other observations

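Some matrix genes below the mean of 1 FPKM were nevertheless in the authors' deposited table, and are given here as values, picked out after they were seen. COL26A1, a collagen chain gene, was at 0.207 FPKM in the ATOH8 library and 1.18 FPKM in the vector library and was marked down in the authors' deposited table (q-value 0.000493). COL28A1, another collagen chain gene, was at 0.462 FPKM in the ATOH8 library and 0.0190 FPKM in the vector library and was marked up in the authors' deposited table (q-value 0.0175). TNXB, which encodes tenascin X, was at 0.804 FPKM in the ATOH8 library and 0.117 FPKM in the vector library, also marked up in the authors' deposited table (q-value 0.00194). ITGA11, the collagen-binding integrin alpha 11 chain gene, was at 1.12 FPKM in the ATOH8 library and 0.198 FPKM in the vector library, and EFEMP2, which encodes an elastic fibre protein, at 0.751 FPKM in the ATOH8 library and 0.164 FPKM in the vector library, both marked up in the authors' deposited table.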
